A study of Mus musculus with 20 samples.

Results

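The chemokine system of the mammary gland was described through 53 genes, out of 18194 represented on the arrays. They are the chemokine ligands of the Ccl, Cxcl, Xcl and Cx3cl families, their G protein-coupled receptors (Ccr, Cxcr, Xcr and Cx3cr) and the atypical receptors (Ackr), chosen by gene symbol alone with 1 probe set per gene, the one with the highest mean. Of the 53, 39 passed the filter on dim values, a log2 value above 6.85, the overall median, on 3 or more of 20 arrays, and were tested. The other 14 were Ccl1, Ccl3, Ccl7, Ccl17, Ccl20, Ccr3, Ccr8, Ccr9, Cx3cr1, Cxcl2, Cxcl3, Cxcl5, Cxcl11 and Xcl1.

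Each array held RNA of 1 number 4 mammary gland, free of tumor, from a female FVB/N mouse of 20.5 to 21 weeks. All 20 animals, controls included, were heterozygous for the NRL-TGFa transgene (line 1372-1), in which the NRL promoter drives TGFα, a ligand of the EGF receptor, in the mammary epithelium, and all came from this 1 line. At 8.5 weeks each received a subcutaneous implant with 5 mg tamoxifen, a selective oestrogen receptor modulator, or with carrier free of the drug (placebo), with the gland removed 4 weeks after the treatment's end. Mammary tumors were scored until an age of 2 years. This gave 7 placebo animals with a later tumor (numbers 1, 2, 4, 7, 8, 9 and 10), 3 placebo animals without (3, 5 and 6), 3 tamoxifen animals with (1, 2 and 10) and 7 tamoxifen animals without (3 to 9). In what follows "tumor" and "no tumor" are outcomes of the animal after the gland was taken, not states of the gland. The study's question was whether expression differed between animals that did and did not go on to form tumors.

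Chemokines are small secreted proteins that bind heptahelical receptors and steer leukocytes along gradients. Homeostatic members such as Cxcl12, Cxcl13 and Ccr7 place lymphocytes and dendritic cells in lymphoid tissue, inflammatory members recruit monocytes, neutrophils and effector T cells, and atypical receptors bind chemokines without G protein signalling and shape the gradients. In the mammary gland they are known for the macrophages and eosinophils that accompany duct growth. The number 4 gland of the mouse also holds the inguinal lymph node, and the labels do not say whether it was left in.

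Members that passed the test in at least 1 comparison were Ccl22, Cxcl15, Ccr7 and Cxcl14. The 250 bases before the transcription start of Ccl22 and Cxcl15 are shown because the 2 genes gave the outcome differences that passed and moved in opposite directions. The sequences are RefSeq's on GRCm38.p6, on the strand of the gene, with the TATAAA of Cxcl15 in capitals, at chr8:94745434-94745683 (plus strand) for Ccl22 and chr5:90794284-90794533 (plus strand) for Cxcl15.
Ccl22: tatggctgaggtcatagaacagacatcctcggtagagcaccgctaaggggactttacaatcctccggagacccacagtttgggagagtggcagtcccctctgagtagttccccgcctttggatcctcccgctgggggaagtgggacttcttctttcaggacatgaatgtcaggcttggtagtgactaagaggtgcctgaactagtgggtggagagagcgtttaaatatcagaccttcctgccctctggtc
Cxcl15: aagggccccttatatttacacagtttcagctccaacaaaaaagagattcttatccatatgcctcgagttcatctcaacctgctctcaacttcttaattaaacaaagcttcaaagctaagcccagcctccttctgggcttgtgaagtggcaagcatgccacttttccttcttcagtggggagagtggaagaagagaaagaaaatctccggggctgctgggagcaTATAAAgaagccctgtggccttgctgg
A set of 4 motifs was searched on both strands, in windows from 250 bases before to 50 after the start. They were TATAAA, the STAT-type TTCNNNGAA, the AP-1-type TGANTCA and the kappaB consensus. The Cxcl15 window held TATAAA 27 to 22 bases before the start, the Cxcl14 window held TTCTGAGAA 191 to 183 bases before it, and the Ccl22 window held none of these letters. Among all 32851 windows, TATAAA occurred in 13.6%, TTCNNNGAA in 8.3%, TGANTCA in 7.81% and the kappaB consensus in 8.46%. Among 44 windows of the 40 members with an entry, the counts were 13, 3, 7 and 12. Ccr7 had no entry.

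All 6 luminal epithelial markers passed the filter, and their mean log2 level per animal lay between 8.84 and 11.5. The filter does not single out a tissue, since all 7 skeletal muscle markers passed it too, at 6.29 to 12.2. Placebo animals 7, 8 and 9, all with a later tumor, stood apart from the other arrays on the first principal component (-32.95, -46.14 and -14.42, against -6.97 to 13.07), so the value without them is given beside each named result whose call they ended or whose size they moved by over 1.5 times, as far as it was run. Precision is limited by the number of arrays. In whole glands, fewer cells of a type and less RNA per cell cannot be told apart.

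Between the 10 animals with a later tumor and the 10 without, Ccl22 was lower and Cxcl15 higher in the glands of the tumor animals. Ccl22 is made by dendritic cells and macrophages and attracts cells that carry Ccr4, among them regulatory T cells. Cxcl15 is an ELR-type CXC ligand first described in lung epithelium that attracts neutrophils. These were 2 of 39 members called, beside 0.232% of all genes tested.

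Ccl22 (probe set 1417925_at) had log2 values of 8.14 to 8.73 in the 7 placebo tumor animals, with a median of 8.49. The 3 placebo animals without tumor were at 9.33, 9.52 and 8.79. The 3 tamoxifen tumor animals were at 8.92, 8.66 and 8.45. The 7 tamoxifen animals without tumor ran from 8.78 to 9.34, with a median of 9.06. All 10 tumor animals lay below the median of the no-tumor animals, and the ranges overlapped only through tamoxifen animal 1 at 8.92, which lay above tamoxifen animal 8 and placebo animal 6. The difference, tumor minus no tumor, was -0.63 on the log2 scale (SE 0.10), 1.55-fold lower, with an adjusted p of 0.0237 (limma, Benjamini-Hochberg over all genes tested).

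Cxcl15 (1421404_at) ran from 8.68 to 10.49 in the placebo tumor animals, with a median of 9.49. The placebo animals without tumor were at 8.57, 7.48 and 8.79, and the tamoxifen tumor animals at 7.93, 8.30 and 10.00. In the tamoxifen animals without tumor it ran from 6.26 to 7.33, with a median of 6.74, below every animal of the other 3 groups. In 5 of those 7 the value was under the filter level of 6.85, and no detection calls were used here. The outcome difference was 2.03 (SE 0.36), 4.08-fold higher in tumor animals, with 10 of 10 above the no-tumor median and an adjusted p of 0.0239 (limma). A second Cxcl15 probe set, dimmer with a mean of 6.79, gave 0.91 and followed the first across animals (r = 0.956).

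Both calls lay near the threshold. With treatment as a covariate, Ccl22 was at -0.60 and Cxcl15 at 1.58, each with an adjusted p of 0.128 in limma, and without placebo animals 7, 8 and 9 they were at -0.50 and 2.10, each at 0.0693. Leaving out placebo animal 5 or tamoxifen animal 6, 7 or 9 ended both calls (adjusted p up to 0.0546 for Ccl22 and 0.0595 for Cxcl15), and leaving out tamoxifen animal 4 ended that of Cxcl15 (0.0566).

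**Figure D1:**
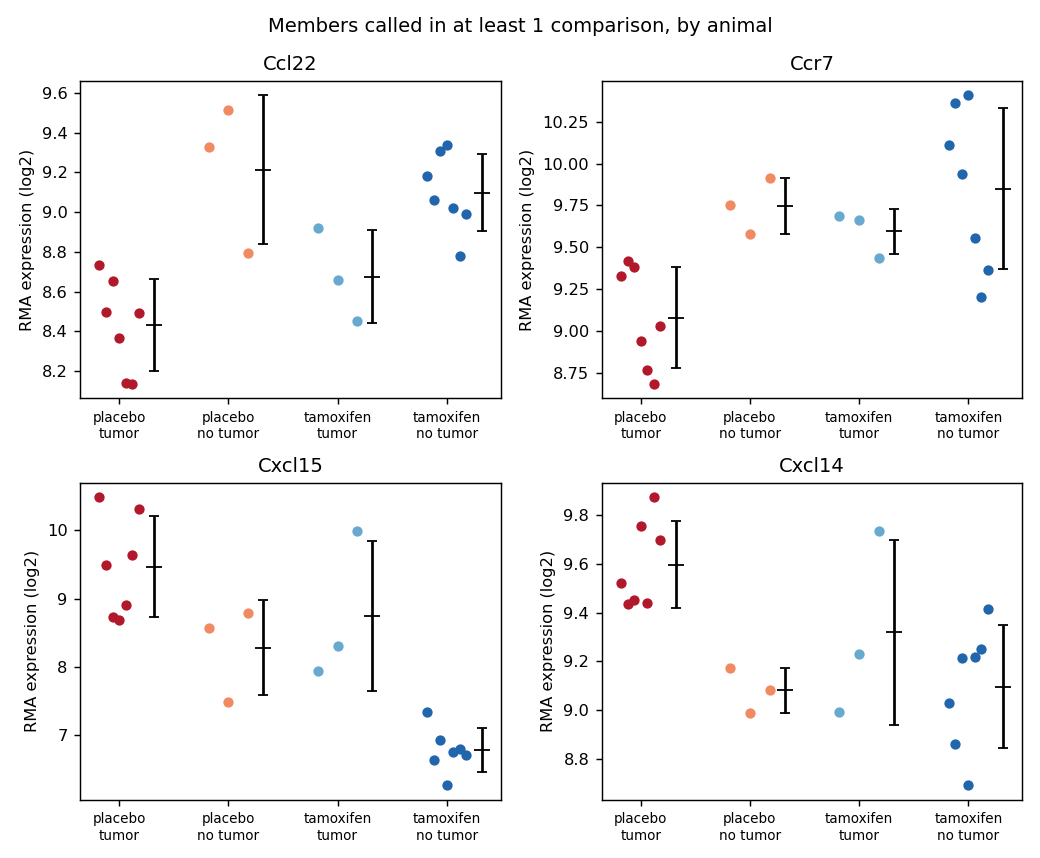
RMA expression on the log2 scale of Ccl22, Ccr7, Cxcl15 and Cxcl14 in each of 20 animals, by treatment and later outcome; each point is 1 animal, and the cross and bar are the group mean and SD (n = 7, 3, 3 and 7). The 7 tamoxifen animals without tumor sit at 6.26 to 7.33 for Cxcl15, under all other animals. For Ccl22 the placebo tumor animals sit at 8.14 to 8.73, a range that also holds tamoxifen tumor animals 2 and 10.

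Several members nearest to these in p did not pass. Cxcl14, an epithelial and stromal chemokine, had a difference of 0.42 (limma adjusted p 0.0712). Ccr7, the receptor that takes naive T cells and mature dendritic cells into lymphoid tissue, had -0.58 (0.0947), with all 10 tumor animals below the no-tumor median. Ccl5, a ligand made largely by T cells, had -0.49 (0.121), also with 10 of 10 below. Ccr4, the receptor of Ccl22, had -0.13 (0.147) at values close to the filter level. It exceeded that level on 3 arrays only, those of placebo animal 5 and tamoxifen animals 4 and 5, all without tumor. Ccr4 thus entered the test only through no-tumor animals, so its lower value in tumor animals cannot be taken as separate support. Cx3cl1, a membrane-bound ligand, had 0.21 (0.168), and Ccl11, an eosinophil attractant, had -0.26 (0.177). A second Cx3cl1 probe set, about as bright (mean 8.04 beside 8.07), gave 0.34. Without placebo animals 7, 8 and 9, Ccl5 was at -0.30 (0.556) and Cx3cl1 at 0.12 (0.639). Over the 39 members, 27 differences lay below 0 and 12 above, with a median of -0.03, beside 54.9% below 0 and a median of -0.01 among all genes tested. At an unadjusted p under 0.05 there were 4 members higher and 7 lower, beside 6.79% and 9.69% of all genes.

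By role, the 6 tested receptors of the CXC, C and CX3C classes all lay below 0 in tumor animals (-0.34 to -0.03), with none called. Of 6 tested CC receptors, 5 lay below 0, and Ccr1, a monocyte and neutrophil receptor, was at 0.35 (limma adjusted p 0.235). The 9 tested inflammatory CC ligands were split 5 below and 4 above, from -0.49 for Ccl5 to 0.29 for Ccl6. Of 5 homeostatic CXC ligands, 4 lay below 0, down to -0.28 for Cxcl13, and Cxcl14 alone lay above. The 3 homeostatic CC ligands tested, Ccl25, Ccl27a and Ccl28, lay within -0.02 to 0.06. The interferon-induced Cxcl9 and Cxcl10 were at 0.11 and -0.13. The 4 atypical receptors ran from -0.39 for Ackr3, which takes up Cxcl12, to 0.03 for Ackr1.

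Markers of cells that carry or make chemokines differed alongside. All 10 tested T cell markers lay below 0 in tumor animals (median -0.41), with 0 called by limma and 10 at an unadjusted p under 0.05. The mean T cell marker level ran from 8.82 to 9.60 in tumor animals and from 9.13 to 10.1 in the others. The 6 dendritic cell markers lay below 0 as well (median -0.13), led by the plasmacytoid marker Siglech at -0.25 (adjusted p 0.182), while 7 of 9 macrophage markers lay above 0 (median 0.05). B cell markers had a median of -0.25. The 4 tested neutrophil markers, 1 of which is the member Cxcr2, had a median of -0.08. Luminal epithelial markers were higher in tumor animals, with a median of 0.98 and 1 of 6 called, and milk protein genes had a median of 2.89 with 4 of 6 called. All 7 skeletal muscle markers lay below 0 in tumor animals (median -1.10), as did all 5 adipocyte markers (median -0.20), with 0 called by limma and 1 of each list at an unadjusted p under 0.05. The part of these cells in the Ccl22 and Cxcl15 differences was not tested.

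The other genes of chemokine signalling, from G protein subunits to kinases and adaptors, gave 0 calls among 21 tested. Their median was -0.19, with 16 below 0 and 8 below it at an unadjusted p under 0.05. Ptk2b, a kinase downstream of the receptors, was at -0.30 (limma adjusted p 0.125), Pik3r5, a regulatory subunit of PI3 kinase gamma, at -0.36 (0.132) and Dock2, which drives lymphocyte migration, at -0.24 (0.202). Of 11 genes of lymphoid tissue and homing, 0 were called and 9 lay below 0, Ltb (lymphotoxin beta) at -0.40 (0.119) and Relb at -0.25 (0.129) among them.

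**Figure D2:**
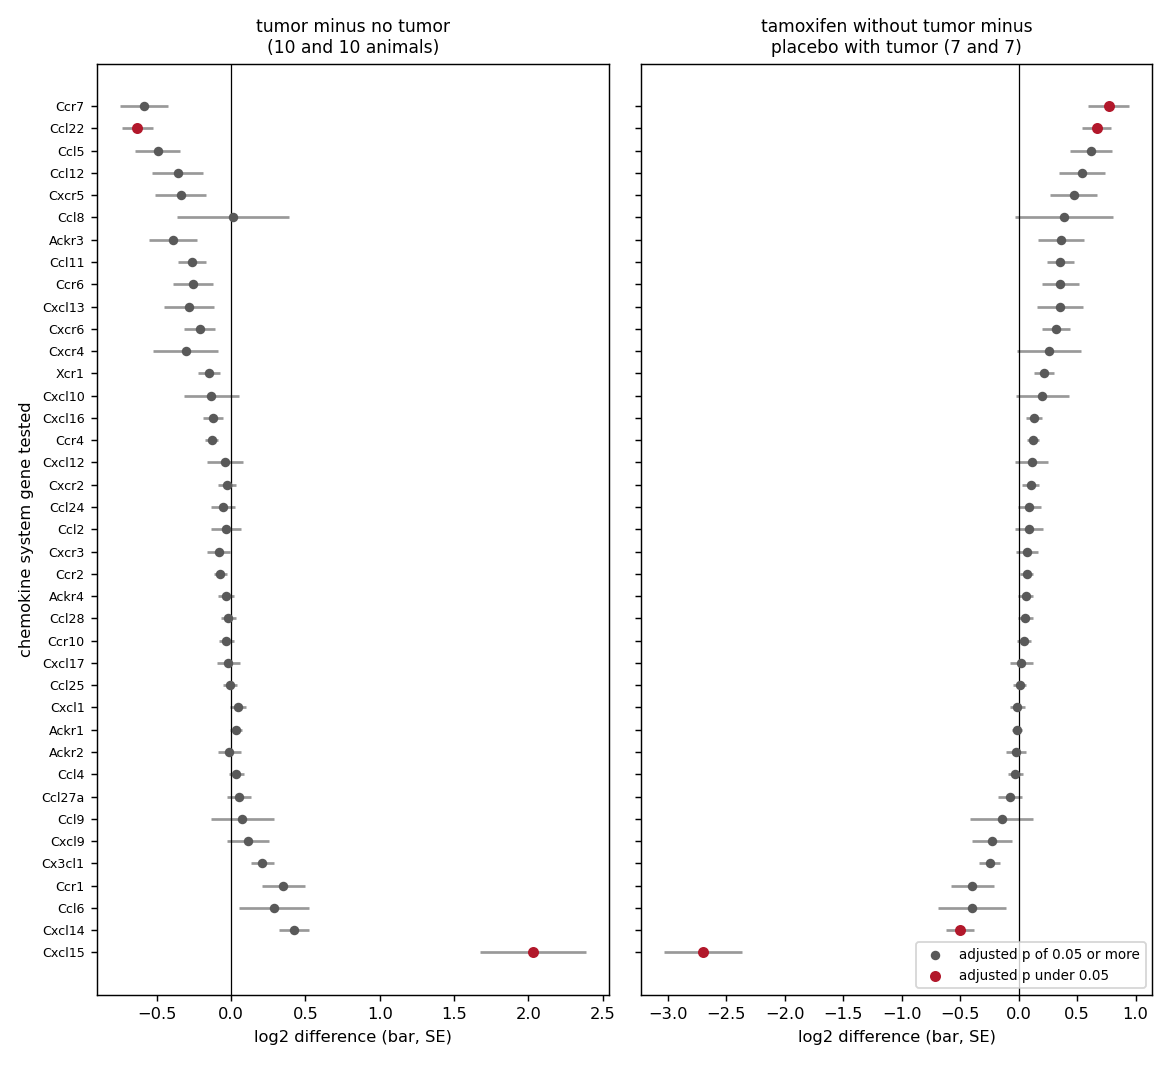
Log2 differences (points) with SE (bars) of the 39 tested members, ordered by the right panel, for tumor minus no tumor (left, 10 and 10 animals) and for tamoxifen animals without tumor minus placebo animals with tumor (right, 7 and 7); red marks an adjusted p under 0.05. Cxcl15 lies farthest from 0 in both panels, at 2.03 and -2.70; the panels share the 14 animals on the right.

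The comparison with the most genes called sets the 7 tamoxifen animals without tumor against the 7 placebo animals with tumor, so that treatment and outcome differ at once, and it shares these 14 animals with the outcome and treatment comparisons. Here Cxcl15 and Cxcl14 were lower, and Ccl22 and Ccr7 higher, in the tamoxifen animals without tumor. These 4 of 39 members were called, beside 4.63% of all genes tested. The ranges of the 2 groups did not overlap for 3 members (Ccl22, Cxcl14 and Cxcl15), beside 1.45% of all genes. Without tamoxifen animal 8 the count was 8, with Ccl5, Ccl11, Ccl12 and Cxcr6 added to the 4. When each of the 20 animals was left out in turn, 3 to 8 members were called, beside 295 to 846 of all genes.

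Cxcl15 differed by -2.70 (SE 0.33), 6.49-fold, with an adjusted p of 0.000358 in limma over 7 and 7 animals. It was the only member called here without placebo animals 7, 8 and 9, at -2.99 (adjusted p 0.00129). Ccl22 differed by 0.67 (SE 0.12), 1.59-fold, at an adjusted p of 0.00488, and by 0.51 (0.0799) without those 3 animals. The lowest tamoxifen animal without tumor, at 8.78, lay just above the highest placebo tumor animal, at 8.73.

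Ccr7 (1423466_at) ran from 8.69 to 9.42 in placebo tumor animals (median 9.03) and from 9.20 to 10.41 in tamoxifen animals without tumor (median 9.94). The placebo animals without tumor were at 9.75, 9.58 and 9.91, above every placebo tumor animal, and the tamoxifen tumor animals at 9.69, 9.66 and 9.44. The groups of 7 overlapped, with tamoxifen animals 8 and 9 inside the placebo range. The difference was 0.77 (SE 0.18), 1.71-fold, at an adjusted p of 0.0194 in limma, and 0.56 (0.23) without placebo animals 7, 8 and 9.

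Cxcl14 (1418456_a_at) ran from 9.44 to 9.87 in placebo tumor animals (median 9.52) and from 8.69 to 9.41 in tamoxifen animals without tumor (median 9.21). The placebo animals without tumor were at 9.17, 8.99 and 9.08, and the tamoxifen tumor animals at 8.99, 9.23 and 9.73, so that tamoxifen animal 10 alone of its group lay in the placebo tumor range. The difference was -0.50 (SE 0.12), 1.42-fold lower, at an adjusted p of 0.0216 in limma. It was -0.43 (0.166) without placebo animals 7, 8 and 9 and -0.46 (0.0513) without tamoxifen animal 4. The second Cxcl14 probe set gave -0.80 and followed the first across animals (r = 0.912).

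Members next in p were Ccl5 at 0.62 (limma adjusted p 0.0551), Ccl11 at 0.36 (0.0749), Cx3cl1 at -0.25 (0.114) and the monocyte attractant Ccl12 at 0.54 (0.121). Ccl12 exceeded the filter level on only 7 arrays, tamoxifen animals 3 to 7 among them. Ccl5 ran from 10.43 to 11.38 in placebo tumor animals and from 10.83 to 11.96 in tamoxifen animals without tumor, with the placebo animals without tumor at 11.55, 11.33 and 11.28. Cx3cl1 had a second probe set at -0.44. Without placebo animals 7, 8 and 9, Ccl5 was at 0.35 (0.467) and Cx3cl1 at -0.12 (0.6). In all, 27 members lay above 0 and 12 below, with a median of 0.09, beside 46.2% below 0 and a median of 0.01 among all genes. At an unadjusted p under 0.05 there were 10 members higher and 4 lower, beside 11% and 9.34% of all genes.

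In the same contrast 9 of 10 T cell markers were called, all higher in tamoxifen animals without tumor (median 0.60). Their mean level ran from 8.82 to 9.37 in placebo tumor animals and from 9.13 to 10.1 in tamoxifen animals without tumor. Of 6 dendritic cell markers 1 was called, Flt3 at 0.22 (limma adjusted p 0.0234), and the median was 0.21. All 6 B cell markers lay above 0 (median 0.40) and 6 of 9 macrophage markers below 0 (median -0.03), with 0 called in either list. The regulatory T cell markers Ctla4 and Ikzf2 were at 0.33 (0.16) and 0.24 (0.111), while Foxp3 and Il2ra were too dim to be tested. All 6 luminal markers were called lower, Krt18 at -0.95 (0.0139) among them, as were 5 of 6 milk protein genes. Skeletal muscle markers were called higher in 6 of 7, with a median of 2.19. The part of these cell types in the member differences was not tested.

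Of 21 signalling genes 2 were called, both higher: Ptk2b at 0.39 (limma adjusted p 0.0473) and Dock2 at 0.36 (0.0498). Of 11 lymphoid tissue and homing genes 2 were called, the lymphotoxin genes Ltb at 0.54 (0.0321) and Lta at 0.37 (0.0333). Glycam1 and Madcam1, also on that list, were at 0.17 (0.578) and -0.15 (0.454). Madcam1 was highest in placebo animals 7, 8 and 9 (7.65, 7.62 and 7.49), which also had the highest mean luminal marker levels. Glycam1 was highest in placebo animal 9 (12.67), which had the highest mean milk gene level, and next in tamoxifen animal 3 (12.55), with a low one. Whether either gene followed lymph node vessels or epithelium in these glands was not tested.

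Between 10 tamoxifen and 10 placebo animals, 0 of 39 members were called by limma, beside 0.008% of all genes. At an unadjusted p under 0.05 there were 6 members higher and 2 lower in tamoxifen animals, beside 6.95% and 6.96% of all genes. Cxcl15 was at -1.75 (SE 0.42, adjusted p 0.108) with 9 of 10 tamoxifen animals below the placebo median, tamoxifen animal 10 being the exception; it was called without tamoxifen animal 10 (-2.04, 0.0301) or placebo animal 5 (-1.93, 0.0402). Ccr7 was at 0.49 (0.204), Ccl11 at 0.24 (0.284) and Ccl12, above the filter level on only 7 arrays, at 0.40 (0.286). Cxcr6, the receptor of Cxcl16 on T cells and natural killer cells, was at 0.24 (0.3). Cxcl14 was at -0.28 (0.313), Ccl5 at 0.38 (0.313), Xcr1, the receptor of cross-presenting dendritic cells, at 0.16 (0.349) and Ccl22 at 0.31 (0.396). Of the 39 members, 10 lay below 0 and 29 above, with a median of 0.06, beside 49.5% of all genes below 0.

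Treatment and outcome overlap in this design, since 7 of 10 placebo but 3 of 10 tamoxifen animals had a later tumor. With outcome as a covariate all 9 of these differences were smaller: Cxcl15 was at -1.12 (limma adjusted p 0.519), Ccr7 at 0.31 (0.711), Ccl5 at 0.21 (0.817), Cxcl14 at -0.13 (0.832) and Ccl22 at 0.07 (0.934). Without placebo animals 7, 8 and 9, Cxcl15 was at -1.76 (0.22), Ccr7 at 0.29 (0.58), Ccl5 at 0.16 (0.766), Cxcr6 at 0.11 (0.705), Cxcl14 at -0.17 (0.67) and Ccl22 at 0.11 (0.847). Cell markers differed alongside, with 0 called by limma in the lists named here. All 10 T cell markers were higher in tamoxifen animals at an unadjusted p under 0.05 (median 0.43), as were all 7 skeletal muscle markers (median 1.95). At the same threshold 5 of 6 luminal markers (median -0.78) and all 6 milk protein genes (median -2.32) were lower. B cell markers had a median of 0.31 and macrophage markers of 0.01. The part of these cells in the member differences was not tested.

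Within the treatments the groups of 3 limit the comparison, and 0 members were called in either. In placebo glands, with 0.008% of all genes called, Ccl22 was at -0.78 (SE 0.16, limma adjusted p 0.125), Cxcl14 at 0.52 (0.175), Ackr1 at 0.18 (0.182) and Ccr7 at -0.67 (0.22). Ccl22 was called there without placebo animal 6 (-0.99, adjusted p 0.0164) or placebo animal 10 (-0.79, 0.0495). In tamoxifen glands, also with 0.008% called, Cxcl15 was at 1.98 (SE 0.43, 0.263), Cxcl16 at -0.29 (1) and Ccl22 at -0.42 (1). At an unadjusted p under 0.05 limma gave 4 members up and 5 down in placebo glands, beside 6.29% and 7.83% of all genes. In tamoxifen glands it gave 1 up and 2 down, beside 0.632% and 1.46%.

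Tamoxifen and placebo were also compared within each outcome. Among animals without tumor, 0 members and 0.064% of all genes were called by limma. Cxcl15 was at -1.51 (SE 0.43, adjusted p 0.37). Ccl8, a monocyte attractant and in the mouse a ligand of Ccr8, was at 1.26 (0.851), with log2 values of 9.78, 8.38 and 9.40 in the placebo animals and 8.51 to 11.64 in the tamoxifen animals. Ackr1 was at 0.16 (0.536) and Ackr2 at -0.26 (0.776). Among tumor animals, 0 members and 0% of all genes were called, with Ccr7 at 0.52 (SE 0.23, adjusted p 0.703) and Cxcr6 at 0.35. Without placebo animals 7, 8 and 9 these were 0.30 and 0.19, each with an adjusted p of 0.997 in limma. An unadjusted p under 0.05 was reached by 3 members up and 2 down without tumor, beside 2.7% and 2.56% of all genes, and by 2 up and 0 down with tumor, beside 2.6% and 4.4%.

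Whether the outcome difference depended on treatment was tested by the interaction. It gave 0 member calls in limma, beside 0% of all genes, and 1 member above 0 and 2 below had an unadjusted p under 0.05, beside 1.82% and 2.7% of all genes. Ackr1, the chemokine-binding receptor of venules, ran from 9.30 to 9.51 in placebo tumor animals, and stood at 9.31, 9.16 and 9.27 in placebo animals without tumor. It stood at 9.29, 9.33 and 9.34 in tamoxifen tumor animals and ran from 9.35 to 9.51 in tamoxifen animals without tumor. The outcome difference in tamoxifen glands minus that in placebo glands was -0.26 (SE 0.08, unadjusted p 0.00246, adjusted p 0.938 in limma). Cxcl16, a transmembrane ligand, gave -0.35 and Ackr2, a scavenger of inflammatory CC ligands, gave 0.41, both with an adjusted p of 0.938. Ccl22 gave 0.36 (unadjusted p 0.121), or 0.20 without placebo animals 7, 8 and 9, and Cxcl15 gave 0.79 (0.209), so that no dependence on treatment was detectable for either with these group sizes.

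**Figure D3:**
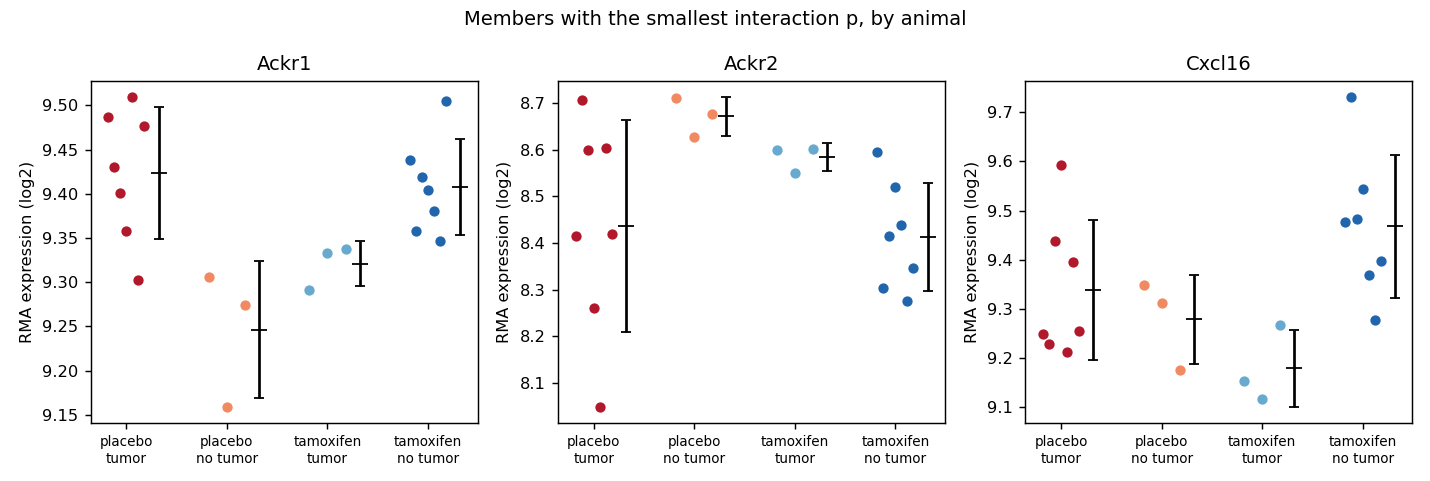
RMA expression on the log2 scale of Ackr1, Ackr2 and Cxcl16 in each of 20 animals, by treatment and later outcome; points are animals, and the cross and bar are the group mean and SD (n = 7, 3, 3 and 7). For Ackr1 all 3 placebo animals without tumor and all 3 tamoxifen tumor animals lie at 9.34 or below.

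Across the 20 animals, 12 pairs of partners or of a member and a cell marker were listed and 11 could be run, by a two-sided permutation test adjusted over the 11. Ccr7 followed the T cell receptor subunit Cd3e most closely (r = 0.931, rho = 0.901, adjusted p 0.00011, which rests on the smallest p the permutations can give). Without the 2 animals farthest in Ccr7 r was 0.906, within the 4 groups it was 0.91, and in the runs of animal numbers 1 to 5 and 6 to 10 it was 0.904 and 0.939.

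Ccl22 followed Ccr7 (r = 0.777, rho = 0.794, permutation adjusted p 0.00033), with 0.495 and 0.867 in the 2 runs of numbers, 0.543 within the 4 groups, 0.807 without the 2 animals farthest in Ccl22 and 0.605 (adjusted p 0.0203) without placebo animals 7, 8 and 9. That relation was 0.876 among tumor animals and 0.327 among the others; the difference between the 2 was not tested. Ccl22 also followed Ccl17, the other ligand of Ccr4 (r = 0.734, rho = 0.719, adjusted p 0.000807; 0.5 and 0.782 in the runs; 0.654 without the 2 animals farthest in Ccl22), and Ccr4 itself (r = 0.655, rho = 0.593, 0.00317; 0.726 and 0.537; 0.672). Within the 4 groups r was 0.615 for Ccl17 and 0.354 for Ccr4, and for Ccr4 it was 0.214 among tumor animals and 0.484 among the others. Without placebo animals 7, 8 and 9 r was 0.522 (permutation adjusted p 0.0495) for Ccl17 and 0.632 (0.0188) for Ccr4. Both partners were dim, Ccl17 under the filter level on every array.

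Cxcl15 followed the luminal keratin Krt18 (r = 0.715, rho = 0.754, permutation adjusted p 0.00137), with 0.652 and 0.8 in the 2 runs, 0.66 without the 2 animals farthest in Cxcl15 and 0.477 within the 4 groups. Among animals without tumor r was 0.261. Cxcl13, which forms B cell follicles, and its receptor Cxcr5 gave r = 0.665 and rho = 0.725 (0.00317), with 0.513 and 0.766 in the runs, 0.679 without 2 animals and 0.585 within groups. The relation of Cx3cl1 to Cx3cr1 (r = 0.502, rho = 0.238, 0.0446) rested on 2 animals, since r was 0.24 without placebo animals 7 and 8 and 0.103 without 7, 8 and 9, and that of Cxcl9 to Cxcr3 (r = 0.469, rho = 0.338, 0.0495) fell to 0.304 without 2. Cxcl12 with Cxcr4 (r = 0.399, rho = 0.38, 0.101), Ccl20 with Ccr6 (0.194, 0.202, 0.454) and Xcl1 with Xcr1 (0.137, 0.063, 0.563) did not pass. A second Cxcl12 probe set, nearly as bright with a mean of 11.2 beside 11.4, did not follow the one used (r = -0.023). The pair with Cxcr4 was not run for it, so the value given holds for 1 probe set only.

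**Figure D4:**
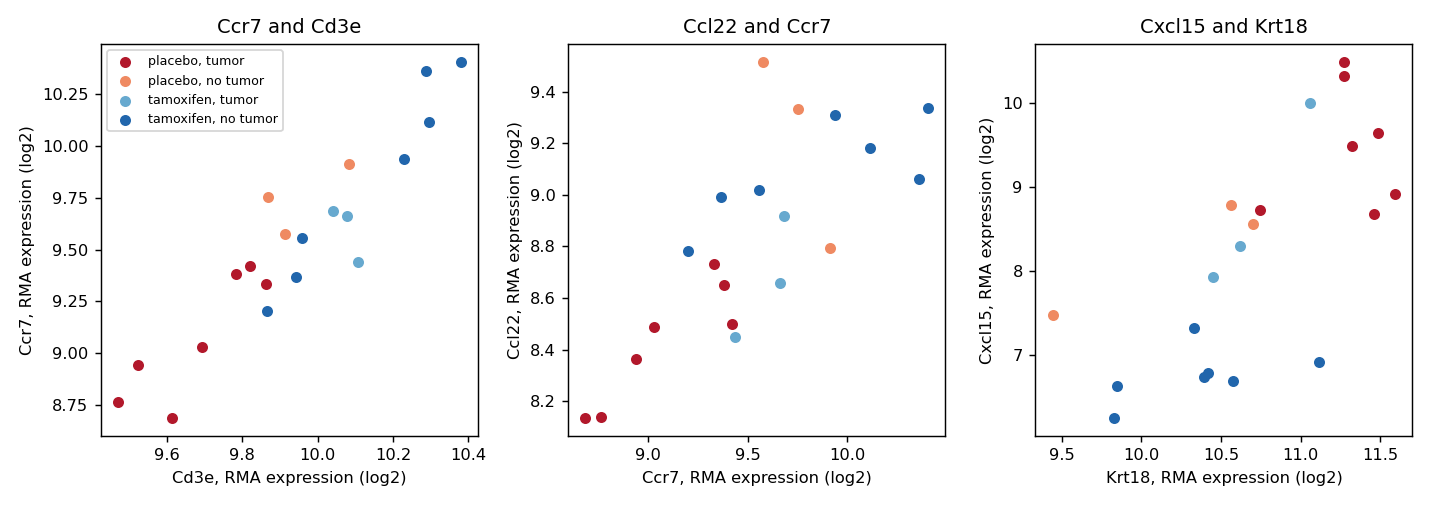
RMA expression on the log2 scale of Ccr7 against Cd3e, Ccl22 against Ccr7 and Cxcl15 against Krt18; each point is 1 of 20 animals, coloured by treatment and later outcome. The points follow a line most closely for Ccr7 and Cd3e (r = 0.931), and in the right panel the tamoxifen animals without tumor are the lowest in Cxcl15, at Krt18 values of 9.83 to 11.12, while 6 placebo tumor animals have higher Krt18 values.

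Many members are neighbours in the genome, in the order of RefSeq genes on GRCm38.p6. Ccl22, Cx3cl1 and Ccl17 adjoin on chromosome 8, and their outcome differences were -0.63, 0.21 and -0.15, the last for a dim probe set. Cxcl15 lies between Cxcl3 and Cxcl1 on chromosome 5, where Cxcl1 was at 0.05 and Cxcl3 was too dim to be tested. On chromosome 11, Ccl2, Ccl7, Ccl11, Ccl12 and Ccl8 follow each other, with tested differences of -0.03 for Ccl2, -0.26 for Ccl11, -0.36 for Ccl12 and 0.01 for Ccl8. On the same chromosome Ccl5, Ccl9, Ccl6, Ccl3 and Ccl4 adjoin, with -0.49 for Ccl5, 0.08 for Ccl9, 0.29 for Ccl6 and 0.04 for Ccl4. The value of Ccl8 is small beside its SE of 0.38. Tested neighbours lay on both sides of 0 on chromosome 8 and around Ccl5 on chromosome 11.

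Spread between animals differed among the tested members. Cxcl15 had an SD of 1.33 over the 20 animals and Ccl8 of 0.89, the latter with group means of 10.1 ± 0.78 (SD, n = 7) in placebo tumor, 9.19 ± 0.72 (n = 3) in placebo no-tumor, 10.1 ± 0.12 (n = 3) in tamoxifen tumor and 10.4 ± 1.07 (n = 7) in tamoxifen no-tumor animals. Ccl6, Cxcr4 and Ccl9 had SDs of 0.57, 0.54 and 0.50, while Ackr1 varied by 0.088.

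The 14 dim members were fitted without the filter among all 18194 genes. None was called by limma in 7 of the 8 comparisons, beside 0 to 14 of all genes. At most 2 dim members had an unadjusted p under 0.05 there. The share of all 18194 genes at that threshold was not worked out, so nothing is drawn from this count. In tamoxifen animals without tumor against placebo tumor animals Ccl17 was called, beside 571 of all genes. It was at 0.21 (limma adjusted p 0.0413), with values of 6.69 to 6.81 against 6.38 to 6.71, all below the filter level. Ccr9, a gut-homing receptor, had the largest difference, 0.49.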

How the data were processed

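Expression was measured in 20 mammary glands on Affymetrix arrays, 1 array per animal. The deposited values are on the log2 scale, 1 per probe set; the submitters' processing notes name RMA. Software, version and genome build: not given in the sources used here. Values were used as they stood. Array medians lay between 6.82 and 6.89, pairwise correlations between 0.977 and 0.997, and 0 pairs of arrays were identical. Labels name animals as biological replicates.

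Of 45101 probe sets, 34958 had 1 symbol, 932 several and 9211 none. Those with several, which include Ccl19 and the Ccl21 genes, are not analysed here, and near-identical copies make Ccl27a uncertain. Each of 18194 genes kept its probe set with the highest mean, and 12499 exceeded 6.85 on at least 3 arrays. The tests were those of limma 3.58.1 (lmFit, eBayes; R 4.3.3), two-sided, with Benjamini-Hochberg adjustment over all genes tested and a threshold of 0.05, in 8 comparisons. Outcome and treatment were each fitted alone, and the other 6 in 1 model of 4 groups that shares the spread. The procedure was tested on simulated data. Pairs of members used 1e+05 permutations.

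Named members were Ccl22, Cxcl15 and Ccr7, every member called, the 8 smallest p in the 3 comparisons over most animals and the 4 smallest in the other 5, with the extremes of role groups. Chosen outside that rule, after their values were seen, were the examples from marker and signalling lists, the members set out by genome neighbourhood, the members with the largest or smallest spread, and Ccl17 and Ccr9. Members and lists were chosen with earlier results of these data known. Alternatives covered scaling, filter, probe sets, variance model, array weights, blocks, covariates and left-out animals.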

Additional observations from a re-analysis of the deposited data

Results flagged for a closer look

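The outcome difference of 3 members differed between treatments by the interaction test at an unadjusted p under 0.05, and none passed after adjustment over all genes (adjusted p 0.938 in limma). For Ackr1 the difference in tamoxifen glands minus that in placebo glands was -0.264 (unadjusted p 0.00246), for Cxcl16 it was -0.349 (0.0131) and for Ackr2 it was 0.405 (0.0136). No animal lay far outside its own group in 30 groups of 7 animals examined over 15 members; the groups of 3 were not examined.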

How the results depend on the processing

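The alternatives were run for the member counts and for the named members in the comparisons that name them, and none of those differences changed sign; the list medians, neighbours and spreads were not rerun. Outcome over all glands gave 2 member calls. It gave 0 with treatment as a covariate, beside 0 of all genes, and 0 without placebo animals 7, 8 and 9, beside 8. Tamoxifen without tumor against placebo with tumor gave 4, and 1 without those 3 animals, where 141 genes were called in place of 579. Leaving out 1 animal at a time gave 0 to 3 members for outcome, beside 1 to 118 of all genes. For treatment it gave 0 to 1 (Cxcl15, without placebo animal 5 or tamoxifen animal 10), beside 0 to 110. For outcome in placebo glands it gave 0 to 1, beside 0 to 60. In the comparison of 7 with 7 animals it gave 3 to 8 (8 without tamoxifen animal 8), beside 295 to 846. It gave 0 throughout in the other 4. The titles number the animals as biological replicates and name no pairs. Deviations of same-numbered animals correlated above 0.1 in 4 of 10 treatment pairs (-0.10 to 0.59) and 1 of 10 outcome pairs (-0.22 to 0.32). Whether same-numbered animals share a batch or a pairing cannot be told from the labels. With the replicate block, members called were 3 for outcome, beside 35 of all 12499 genes tested. For treatment they were 3 (Ccl5, Ccr7 and Cxcl15), beside 235 of all genes. Ccl8 alone was called for outcome in placebo glands (beside 602 genes), the interaction (beside 2) and treatment without tumor (beside 3). For 7 against 7 there were 8, beside 1647 genes, which added Ackr3, Ccl5, Ccr1 and Cx3cl1 to the 4. Centring arrays, quantile normalization, a filter on 10 arrays or none, the mean of all probe sets, trend and robust settings, array weights and runs of numbers as a block kept each member count within 1.5 times. Among these settings, 7 against 7 gave 5 members in 3 cases. The mean of all probe sets added Cx3cl1 (beside 531 genes), no filter added Ccl17 (beside 571) and runs as a block added Ccl5 (beside 663). For outcome, runs as a block gave 3 members, with Cxcl14 added (beside 45 genes). Over named members and alternatives, 1322 values kept their side of the threshold, 24 newly passed it and 17 no longer did. The number of arrays, and values near the filter level, limit what could be detected.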
